A study of Mus musculus with 12 samples.

Results

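The genes described here are 10 feedback and output genes of the MAPK pathway: Dusp1, Dusp4, Dusp5, Dusp6, Spry1, Spry2, Spry4, Spred1, Etv4 and Etv5. They were taken by name from a list of ERK-responsive genes, and all 10 were found among the 24906 genes in each of the 2 FPKM tables (fragments per kilobase of transcript after scaling for library size, so that levels are per transcript length). All 10 passed the filter on low values, which kept genes whose mean over the 6 libraries of a table was 0.5 FPKM or more. The 12 libraries came from small intestine tumor organoids of genotype Smad4KO;BRAFV600E/+;pINDUCER-SMAD4. By this label every library, controls included, was Smad4-knockout, carried 1 activated BRAF allele and held a doxycycline (dox)-inducible SMAD4 construct. Whether this holds for the 1 library marked as mock is not known, since the study's methods also name a mock plasmid. In the parent mice, recombination was driven in the intestinal epithelium by the tamoxifen-activated Villin-CreERT2, and the age of the animals behind each line was not among the labels. The organoids were cultured for 48 h, either without dox or with 4 µg/mL dox, in a medium that contains EGF, Noggin and R-spondin.

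In BME, a basement membrane extract that carries 3D growth, there were 3 untreated libraries (lines 682, 700 and 889), 2 dox libraries (lines 700 and 889) and 1 dox library of line 682 marked as mock. The title and genotype of this mock library read as those of an induced library, and the study's count of vehicle and dox samples places it with the controls. On tissue culture plastic lines 560, 700 and 889 each gave 1 untreated and 1 dox library. A line number names 1 organoid line, and whether each line came from an animal of its own is not stated, so 3 or fewer lines lie behind each group. Lines 700 and 889 were used in both environments.

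In this pathway, receptor tyrosine kinases load RAS with GTP, RAS activates the RAF kinases, RAF phosphorylates MEK, and MEK phosphorylates ERK. ERK then drives the transcription of its own inhibitors. The DUSP proteins are phosphatases that remove phosphate from ERK and other MAP kinases, while the Sprouty (Spry) and Spred proteins act upstream, at the level of receptors, RAS and RAF. BRAF V600E signals without RAS, so the upstream inhibitors bear little on it, and tumors with this allele are known for high levels of DUSP6, SPRY and ETV transcripts. SMAD4 is the common partner of the receptor-activated SMAD proteins in TGFβ and BMP signaling.

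All 10 genes are protein coding in the NCBIM37 annotation. The phosphatase genes lie at chr17:26642535-26645464 (Dusp1, minus strand), chr8:35870351-35882948 (Dusp4, plus), chr19:53603599-53616921 (Dusp5, plus) and chr10:98725865-98730122 (Dusp6, plus). Spry1 lies at chr3:37538869-37543520 (plus), Spry2 at chr14:106291166-106296036 (minus), Spry4 on chromosome 18 and Spred1 at chr2:116947110-117008015 (plus). Etv4 lies at chr11:101631056-101646685 (minus) and Etv5 at chr16:22381382-22439792 (minus).

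Promoter sequences are shown for 4 of the genes whose dox and untreated libraries separated or moved together on plastic, so that the values below can be read beside the DNA at the gene's start. They were chosen after the values were seen. RefSeq promoters were listed for 7 of the 10 genes, and bases 150 to 51 before the RefSeq start were placed by exact match on NCBIM37 and are printed 5′ to 3′ on the gene's strand. The search covered both strands for CAGAC (the SMAD box), TGACG (the core of the cAMP response element), CCGGAA (an ETS site), TGAGTCA (an AP-1 site) and the CArG box that serum response factor binds. Capitals mark the matches.

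Dusp1, chr17:26645468-26645567, minus strand: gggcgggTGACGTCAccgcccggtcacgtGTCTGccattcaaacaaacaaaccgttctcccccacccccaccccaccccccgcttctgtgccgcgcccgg
Spry1, chr3:37538719-37538818, plus strand: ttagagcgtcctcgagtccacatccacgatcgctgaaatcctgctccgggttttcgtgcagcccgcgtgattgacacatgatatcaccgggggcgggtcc
Dusp5, chr19:53603485-53603584, plus strand: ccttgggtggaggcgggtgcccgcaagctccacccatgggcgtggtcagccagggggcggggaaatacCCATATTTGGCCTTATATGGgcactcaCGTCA
Spred1, chr2:116946657-116946756, plus strand: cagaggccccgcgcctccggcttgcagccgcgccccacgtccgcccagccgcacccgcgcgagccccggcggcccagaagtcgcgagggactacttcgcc

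The Dusp1 window held 2 overlapping TGACG matches on opposite strands, at 143 and 140 bases before the start, and 1 CAGAC match on the minus strand at 121 bases. The Dusp5 window held 2 CArG boxes side by side, at 82 and 72 bases before the start, and 1 TGACG match on the minus strand at 55 bases. The windows of Spry1 and Spred1 held none of the 5 motifs. Among 32851 RefSeq promoters of 27025 genes, windows of the same 100 bases held CAGAC in 19.6%, TGACG in 7.86%, CCGGAA in 4.98%, TGAGTCA in 1.96% and a CArG box in 0.603%. A match describes the letters only and is no measure of binding.

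Library depth was estimated from the steps between low FPKM values at 12600000 to 15500000 reads for the BME libraries and at 15000000 to 19800000 for those on plastic. Spry4 was the lowest of the 10 genes except in dox lines 700 and 889 on plastic, where Etv5 was lower. It is Spry4 that rested on the fewest reads, about 78.9 in 1 library. Smad4 itself was listed in BME at 17.2 and 27.3 FPKM with dox against 6.23 to 8.88 in untreated libraries and 10.3 in the mock library. On plastic Smad4 was 18.1 to 73.6 FPKM with dox and 1.54 to 4.76 without. The difference was the most extreme the design allows in both environments (two-sided exact permutation test, p = 0.133 in BME and p = 0.1 on plastic, each the smallest these group sizes can give). Epithelial markers were high in every library, with a summed level of 6158 to 18407 FPKM over 12 genes. The summed levels of 9 fibroblast and 5 endothelial markers reached at most 7.12 and 3.65 FPKM, and that of 8 immune markers at most 45.7 FPKM. The epithelial sum in BME was 10010 to 11753 FPKM with dox, against 6158 to 7333 FPKM in untreated libraries and 6203 FPKM in the mock one, and its part in the BME values below was not tested.

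The first comparison asked how the 10 genes differed on plastic between dox, which induces SMAD4, and no dox. No mock dox library was among those on plastic. An effect of dox itself therefore cannot be told apart from that of SMAD4 there. None of the 10 genes was called by limma (adjusted p under 0.05 together with a log2 change beyond 1 in either direction), and 0.0324% of all 12333 genes tested were called. The study's own DESeq2 test, at the same thresholds, called more genes in each environment than limma did here. A missing call here is thus no evidence that a gene did not change. At an unadjusted p under 0.05 there were 4 of the 10 genes (Dusp1, Spry1, Spry4 and Spred1), where 8.29% of all genes tested were. The 10 genes did not move together. Spry4 and Spred1 lay higher in every dox library than in every untreated library (7.87% of all genes tested did so), and Dusp1 and Spry1 lay lower (7.26% of all genes tested). Changes below are on the log2(FPKM + 1) scale, which understates the change of low genes.

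**Figure D1:**
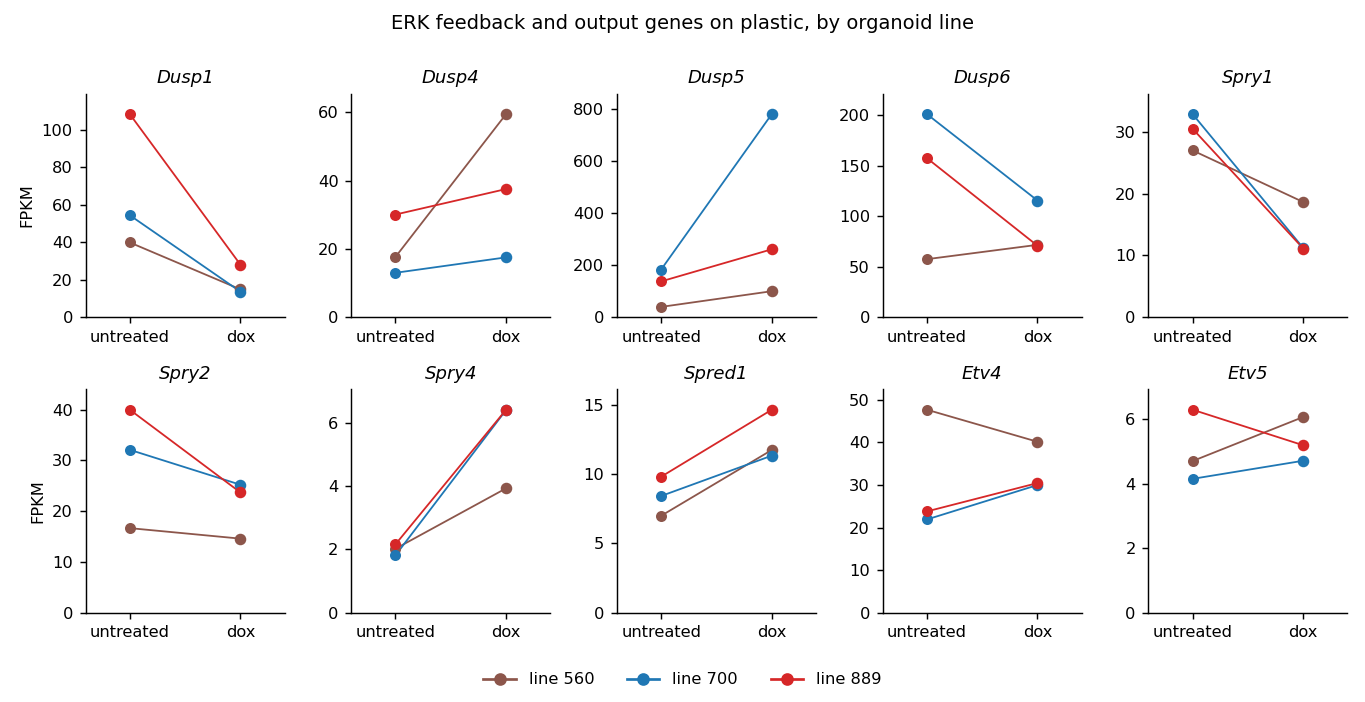
FPKM of each of the 10 genes (y axis, linear from 0, a scale of its own per gene) in untreated and dox organoids on plastic, with points for libraries and lines joining the libraries of one organoid line. The dox points of Dusp1 and Spry1 lie below all untreated points, those of Spry4 and Spred1 lie above them, and Dusp6 of line 560 runs against the other lines.

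Among the phosphatases, Dusp1 encodes a nuclear phosphatase that acts on p38 and JNK as well as ERK and is itself an immediate early gene. Its level in untreated organoids on plastic was 39.9, 54.4 and 108 FPKM in lines 560, 700 and 889. With dox it was 14.8, 13.6 and 28.0 FPKM in the same lines. The highest dox library thus lay below the lowest untreated one, and untreated levels were 2.69, 4.00 and 3.86 times those with dox. The mean change per pair was -1.73 ± 0.32 (SD, n = 3 pairs), with a limma SE of 0.44 and an adjusted p of 0.390. Dusp1 is also among the cell-cycle genes that the study plotted from these plastic libraries. The study describes the genes of that plot as bound by SMAD4 and significantly downregulated by its own test. The direction of Dusp1 here is therefore no independent evidence.

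Dusp5, which encodes a nuclear phosphatase specific to ERK, took the opposite direction. Untreated organoids had 39.6, 183 and 138 FPKM in lines 560, 700 and 889. Dox organoids had 99.9, 782 and 261 FPKM. Dox was higher within every line, by 2.53-, 4.26- and 1.90-fold, but the spread between lines was wider than the change, so that dox line 560 lay below untreated lines 700 and 889. The mean change was 1.44 ± 0.59 (SD, n = 3 pairs), with a limma SE of 0.86 and an adjusted p of 0.723. In dox line 700 Dusp5 reached the highest level of any of the 10 genes on plastic.

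Dusp4 encodes an inducible nuclear phosphatase of ERK and other MAP kinases. It was listed at 17.6, 13.0 and 30.0 FPKM in untreated lines 560, 700 and 889, and at 59.5, 17.5 and 37.5 FPKM with dox. All 3 pairs were higher with dox, 1 of them by 3.37-fold (line 560) and the others by 1.35- and 1.25-fold. The mean change of 0.80 ± 0.78 (SD, n = 3 pairs) was about as large as its spread, and limma gave an SE of 0.49 and an adjusted p of 0.736.

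Dusp6, the cytoplasmic phosphatase that is specific to ERK and a common readout of ERK activity, had no shared direction. It was listed at 57.4, 201 and 157 FPKM in untreated lines 560, 700 and 889 and at 71.6, 115 and 70.7 FPKM with dox. Line 560 was higher with dox by 1.25-fold, while lines 700 and 889 were lower, with untreated levels 1.74 and 2.23 times those with dox. The mean change of -0.54 ± 0.76 (SD, n = 3 pairs) was smaller than its SD, and limma gave an SE of 0.49 and an adjusted p of 0.8287.

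The Sprouty genes went different ways. Spry1 was 27.0, 32.9 and 30.5 FPKM in untreated lines 560, 700 and 889 and 18.7, 11.2 and 11.1 FPKM with dox. The groups did not overlap, and the change of -1.12 ± 0.53 (SD, n = 3 pairs) had a limma SE of 0.25 and an adjusted p of 0.318. Spry4 was 2.02, 1.81 and 2.16 FPKM untreated and 3.93, 6.40 and 6.41 FPKM with dox. Its groups were also apart, with folds of 1.94, 3.53 and 2.97, and its change of 1.11 ± 0.36 (SD, n = 3 pairs) had a limma SE of 0.24 and an adjusted p of 0.304. Even with dox, Spry4 stayed below Spry1 in every line.

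Spry2 followed Spry1 in sign but by less. It was 16.7, 32.1 and 40.0 FPKM in untreated lines 560, 700 and 889 and 14.6, 25.2 and 23.7 FPKM with dox. It was lower with dox in 3 of 3 pairs, although dox lines 700 and 889 lay above untreated line 560, and the change of -0.42 ± 0.28 (SD, n = 3 pairs) had an adjusted p of 0.826 by limma.

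Spred1, which recruits the RAS inhibitor neurofibromin to the membrane, gave the change with the smallest SD of the 10 genes. It was 6.99, 8.42 and 9.81 FPKM in untreated lines 560, 700 and 889 and 11.7, 11.3 and 14.6 FPKM with dox. Folds of 1.68, 1.35 and 1.49 gave a mean change of 0.53 ± 0.14 (SD, n = 3 pairs), with a limma SE of 0.21 and an adjusted p of 0.587.

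The PEA3 family ETS factors Etv4 and Etv5, transcriptional outputs of ERK rather than inhibitors, showed the smallest mean changes. Etv4 was 47.7, 21.9 and 23.8 FPKM untreated and 40.2, 30.0 and 30.5 FPKM with dox in lines 560, 700 and 889, so line 560 was lower and the others higher. Etv5 was 4.70, 4.15 and 6.29 FPKM untreated and 6.07, 4.71 and 5.19 FPKM with dox, with line 889 lower and the others higher. Their limma changes were 0.18 (SE 0.33, adjusted p = 0.930) and 0.07 (SE 0.22, adjusted p = 0.964).

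Counted over pairs, 4 of the 10 genes were higher with dox in all 3 lines on plastic (Dusp4, Dusp5, Spry4 and Spred1), and 18.6% of all genes tested were. The 3 that were lower in all 3 lines were Dusp1, Spry1 and Spry2, beside 18.7% of all genes tested.

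**Figure D2:**
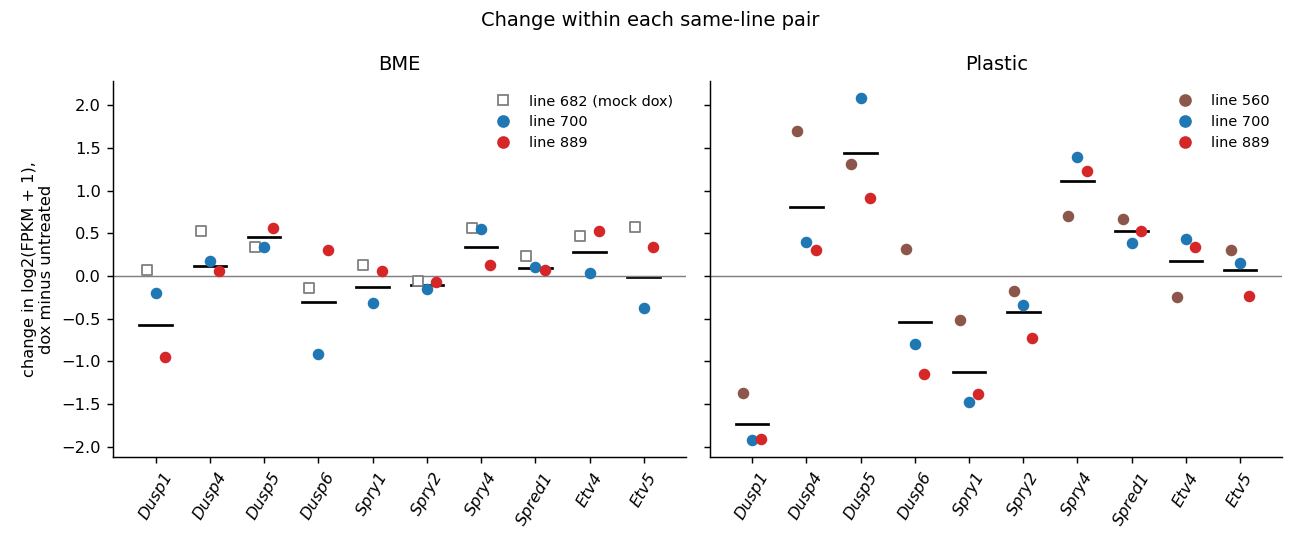
Change in log2(FPKM + 1), dox minus untreated library of the same line, for each gene in BME (left) and on plastic (right); the black bar is the mean of the dox pairs and the open square is the mock pair of line 682, which is not in the mean. On plastic the 3 pairs of Dusp1, Spry1 and Spry2 lie below 0 and those of Dusp4, Dusp5, Spry4 and Spred1 above it, and most BME points lie nearer to 0.

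The pair of line 560 on plastic differed from the others in how the change varied with transcript length. Among the 87.3% of tested genes with an annotated length, the 10% with the longest transcripts (6188 bases or more) had a median change of 0.67 in this pair and the 10% with the shortest (1151 bases or fewer) had -0.62. In lines 700 and 889 these medians were -0.09 and 0.00, and -0.26 and 0.19. The source of this trend, and its part in the 10 genes, was not tested. Without the untreated library of line 560, 6 of the 10 genes had an unadjusted p under 0.05 by limma (Dusp1, Dusp6, Spry1, Spry2, Spry4 and Etv4), as did 9.80% of all genes tested in that fit. Without the dox library of line 560 there were 4 (Dusp1, Dusp5, Spry1 and Spry4), beside 10.4%. Without the untreated library the changes were -2.04 for Dusp1, -1.20 for Spry1, -1.08 for Dusp6, -0.77 for Spry2, 0.78 for Dusp5, 0.75 for Dusp4, 0.52 for Etv4, 1.12 for Spry4 and 0.42 for Spred1. Without the dox library of line 560, they were -1.61 for Dusp1, -1.35 for Spry1, -0.43 for Dusp6, -0.18 for Spry2, 2.16 for Dusp5, 0.41 for Dusp4, 0.046 for Etv4, 1.31 for Spry4 and 0.57 for Spred1. Etv5 was 0.039 without the untreated library and -0.0089 without the dox library, and the other 9 genes kept their direction in both fits. Spred1 was no longer under an unadjusted p of 0.05 in either fit, and the sizes of Dusp4, Dusp5, Dusp6, Spry2 and Etv4 moved with this line. Other lines moved these values too: without dox line 700 Dusp5 was 0.68 and Dusp4 1.27, without untreated line 700 Dusp6 was -0.18, and without untreated line 889 Spry2 was -0.16. None of the 10 genes was called either way.

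The second comparison asked the same of organoids in BME. None of the 10 genes was called by limma, beside 0.0231% of all 12996 genes tested, and 0 of the 10 had an unadjusted p under 0.05, beside 4.09% of all genes tested. No gene of the 10 had both dox libraries above all 4 control libraries (6.33% of all genes tested) or below them (5.83%). Adjusted p-values were 0.959 for 8 genes, 0.979 for Etv4 and 0.993 for Spred1 (limma).

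**Figure D3:**
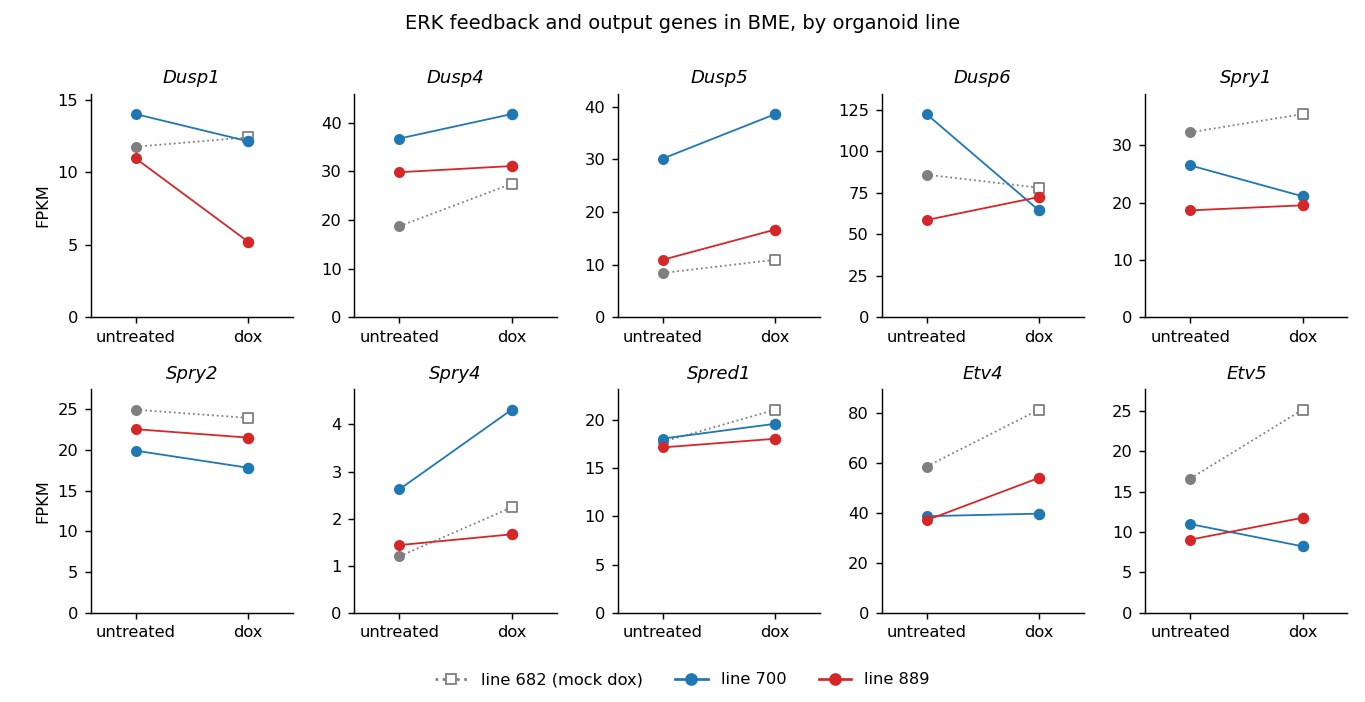
FPKM of each of the 10 genes (y axis, linear from 0, a scale of its own per gene) in untreated and dox organoids in BME, joined by organoid line; the open square with a dotted line is the mock dox library of line 682. No gene separates the 2 dox libraries from all 4 control libraries. Lines differ more than treatments for Dusp5, and both libraries of line 682 lie above all others for Etv4 and Etv5.

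Dusp1 in BME was 11.8, 14.0 and 10.96 FPKM in untreated lines 682, 700 and 889, 12.4 FPKM in the mock library, and 12.1 and 5.22 FPKM in dox lines 700 and 889. Both dox pairs were lower, but by unequal amounts (-0.19 and -0.94), and 1 library, dox line 889, set the difference. The limma change of -0.55 (SE 0.30) was -0.01 without that library and -1.09 without dox line 700.

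Dusp5 in BME differed more between lines than with dox. It was 30.2 and 38.6 FPKM in untreated and dox line 700, 10.9 and 16.7 FPKM in line 889, and 8.41 and 10.9 FPKM in the untreated and mock libraries of line 682. The dox pairs were higher by 1.28- and 1.53-fold, and the mock pair by 1.30-fold. The limma change of 0.89 had an SE of 0.55, and it was 0.31 without dox line 700, 1.47 without dox line 889 and 0.46 in the paired fit.

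Dusp4 was 18.7 FPKM in untreated line 682 and 27.4 FPKM in its mock library, a 1.47-fold difference. In lines 700 and 889 it was 36.8 and 29.8 FPKM untreated and 41.8 and 31.1 FPKM with dox, so the mock pair differed more than either dox pair. Dusp6 was 85.9, 122 and 58.5 FPKM in untreated lines 682, 700 and 889, 78.0 FPKM in the mock library and 64.4 and 72.4 FPKM in dox lines 700 and 889. As on plastic, the Dusp6 pairs disagreed in sign, with -0.92 in line 700 and 0.30 in line 889.

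The Sprouty and Spred genes showed small or uneven differences in BME. Spry1 was 32.3, 26.5 and 18.6 FPKM in untreated lines 682, 700 and 889, 35.4 FPKM in the mock library and 21.1 and 19.5 FPKM with dox, with pair changes of -0.32 and 0.06. Spry2 lay between 17.8 and 24.97 FPKM in all 6 libraries, and Spred1 between 17.2 and 21.1 FPKM. Spry4 was 1.20, 2.62 and 1.44 FPKM untreated, 2.24 FPKM in the mock library and 4.31 and 1.67 FPKM with dox. Its mock pair changed by 0.56, as much as the dox pair of line 700 (0.55) and more than that of line 889 (0.13).

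Etv4 was 58.5, 38.7 and 37.0 FPKM in untreated lines 682, 700 and 889, 81.3 FPKM in the mock library and 39.7 and 54.0 FPKM with dox. Both libraries of line 682 lay above all others, and the sign of the Etv4 change depended on how that line was handled. The limma change was -0.14 (SE 0.35) with the mock library as a control and 0.08 without it, and a paired fit, with line as a block, gave 0.28. Etv5 was 16.6, 10.98 and 9.04 FPKM untreated, 25.1 FPKM in the mock library and 8.23 and 11.8 FPKM with dox. Its limma change of -0.50 (SE 0.40) was -0.24 without the mock library and 0.18 with the mock library counted as dox.

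The mock pair of line 682 gives a scale for differences in BME without much Smad4 induction, since its Smad4 level differed by 1.15-fold. In this pair 8 of the 10 genes were higher in the mock library, with a median change of 0.29, beside -0.01 over all genes tested. The largest was Etv5 at 0.57, followed by Spry4 at 0.56, Dusp4 at 0.53 and Etv4 at 0.47. In the dox pairs the medians over the 10 genes were -0.06 (line 700) and 0.10 (line 889). In the mock pair, too, long and short transcripts differed, with medians of 0.19 and -0.17 for the longest and shortest 10%, and the part of this in the 10 genes was not tested.

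In BME, 5 of the 10 genes were higher with dox in both pairs (Dusp4, Dusp5, Spry4, Spred1 and Etv4), as were 27.2% of all genes tested, and Dusp1 and Spry2 were lower in both, as were 29.5%.

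The third comparison asked whether the dox change differed between plastic and BME. Each table was normalized by itself, so levels were not compared across environments, and only the changes were. None of the 10 differences was called by limma, and 0% of the 11977 genes tested in both tables were. None of the 10 had an unadjusted p under 0.05 either, beside 2.53% of all genes tested. The fitted difference, plastic minus BME, was -1.18 (SE 0.58) for Dusp1, -0.70 (SE 0.37) for Spry1, 0.69 (SE 0.43) for Spry4 and 0.50 (SE 0.24) for Spred1. It was -1.72 for Dusp1 and 0.19 for Spry4 without dox line 889 in BME, and -0.64 and 1.19 without dox line 700 in BME. For Spry1 it was -1.30 with lines 700 and 889 only and -0.995 in the paired fit. For the other 6 genes it lay between -0.26 (Dusp6) and 0.57 (Etv5). In the paired fit, with line as a block, the differences were 0.98 for Dusp5, 0.69 for Dusp4, 0.09 for Etv5 and -0.11 for Etv4. Dusp1, Dusp5 and Spry1 then had an unadjusted p under 0.05, as did 5.42% of all genes tested. Without the block every adjusted p was 1.00, and with it the lowest of the 10 genes was 0.857 (limma), so larger changes of these genes on plastic than in BME were not shown by this test.

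**Figure D4:**
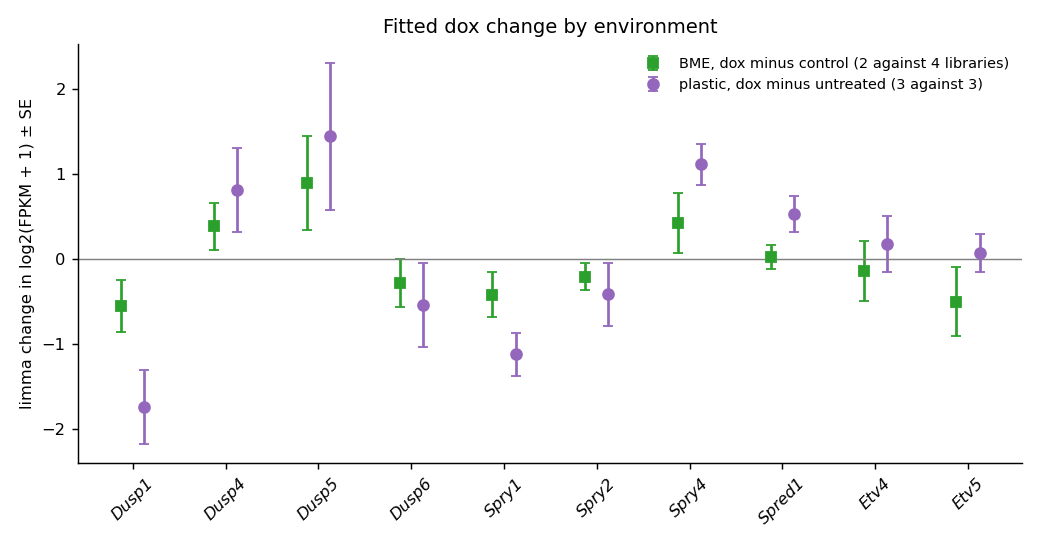
Fitted dox change in log2(FPKM + 1) for each gene (points, limma; bars, ± 1 SE) in BME (squares, 2 dox against 4 control libraries) and on plastic (circles, 3 against 3). All genes but Etv5 lie farther from 0 on plastic than in BME, and no difference between the environments passed the test.

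Other parts of the pathway were set beside these 10 genes by lists, none of which held a called gene in any of the 3 comparisons. The core cascade (17 genes, from adaptors such as Grb2 to the kinases) had a median change of 0.26 on plastic, with 14 genes positive, beside 0.13 over the 10 genes and 0.01 over all genes tested. Map2k1, which encodes MEK1, had a change of 0.85 (SE 0.22, adjusted p = 0.415 by limma) and Sos2, a RAS exchange factor, 0.63. The lowest were the adaptor Gab1 at -0.43 and Hras at -0.20. In BME the median of this list was 0.15, with Map2k1 at 0.64, the scaffold Ksr1 at 0.40 and Gab1 at -0.69. Within same-line BME pairs the mean change was 0.24 ± 0.23 for Map2k1, 0.08 ± 0.45 for Ksr1 and -0.42 ± 0.22 for Gab1 (SD, n = 2 pairs). The list median was 0.14 in the dox pair of line 700 and 0.0064 in that of line 889.

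Other negative regulators (20 genes, 19 tested in each comparison) had a median change of 0.27 on plastic and 0.04 in BME. Within single plastic pairs the median was 0.59, 0.21 and -0.06 in lines 560, 700 and 889. In BME it was 0.06 and 0.03 in the dox pairs of lines 700 and 889, and 0.08 in the mock pair. Dusp2, an inducible nuclear phosphatase, had the largest change of this list at 3.97 (SE 1.48, adjusted p = 0.571 by limma) on plastic and at 2.37 (SE 1.26) in BME. It was near 0 in all untreated libraries (0.13 FPKM or less), at 30.5 and 101 FPKM in dox lines 560 and 889 on plastic and at 33.3 FPKM in dox line 889 in BME. In line 700, however, dox libraries had 0.27 FPKM on plastic and 0 in BME, so no comparable Dusp2 level was detected in that line. Errfi1, an inhibitor of the EGF receptor, was at 0.85 on plastic and -0.57 in BME, and Dusp10, a phosphatase of p38 and JNK, was at 0.88 in BME. Dusp8 (-0.67) and Dusp14 (-0.54) were lowest on plastic, and Lrig1 (-0.48) followed Errfi1 in BME. Within same-line BME pairs the mean change was -0.24 ± 0.38 for Errfi1, 0.59 ± 0.57 for Dusp10 and -0.34 ± 0.00027 for Lrig1 (SD, n = 2 pairs).

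Other ERK output genes (10 genes, 9 tested on plastic and 8 in BME) had a median change of 1.06 on plastic and 0.31 in BME. The median over these genes within single plastic pairs was lower, at 0.23, 0.70 and 0.38 in lines 560, 700 and 889. In BME it was 0.11 and 0.22 in the dox pairs of lines 700 and 889, and 0.27 in the mock pair. On plastic Egr1, an ERK-induced zinc finger factor, was at 1.85 (SE 0.49, adjusted p = 0.415 by limma) and Plaur, the urokinase receptor, at 1.38, while Ccnd1 (cyclin D1) was at -0.70 and Phlda1 at -0.14. In BME the fitted change of Fosl1, an AP-1 subunit, was 1.49 and that of Plaur 0.70, with Egr1 at -1.08 and Epha4 at -0.44. Same-line BME pairs gave mean changes of 0.63 ± 0.70 for Fosl1 and 0.91 ± 0.59 for Plaur (SD, n = 2 pairs). For Egr1 and Epha4 these means were -0.021 ± 0.045 and -0.31 ± 0.68, and the 2 pairs of each gene disagreed in sign.

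Immediate early genes (10 genes, Egr1 among them) had a median of 0.33 on plastic, where Egr1 and Zfp36, an mRNA decay factor, were highest at 1.85 and 1.83 (SE 0.39, adjusted p = 0.304 by limma for Zfp36). Dusp1, with a change of -1.73, thus stood on the other side of 0 from Egr1 and Zfp36. Btg2 (-0.49) and Jun (-0.15) were lowest. In BME the median was -0.33, with Junb at 0.31, Atf3 at 0.05, Fosb at -1.17 and Egr1 at -1.08. These negative values did not hold within lines: the medians of the dox pairs were 0.05 (line 700) and 0.13 (line 889), and the mean pair change was -0.021 ± 0.045 for Egr1 and 0.21 ± 0.74 for Fosb (SD, n = 2 pairs). In the mock pair of line 682 the median was higher, at 0.38, with 10 of 10 genes higher in the mock library. The BME levels of Egr1 varied with the line, from 27.0 and 28.05 FPKM in the dox and untreated libraries of line 889 to 217 and 276 FPKM in the untreated and mock libraries of line 682.

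Proliferation genes (10 genes) were negative without exception in both environments, with medians of -1.05 on plastic and -0.72 in BME, again with no gene called. Of all genes tested, 6036 of 12333 were negative on plastic and 6633 of 12996 in BME. The study had already reported lower cell cycle genes from the same libraries, so the direction of this list is no independent evidence. On plastic Plk1 was at -1.27 and Cdk1 at -1.15, and Pcna had the smallest change at -0.09. Within single plastic pairs, 2 of these genes were higher with dox in line 560, 0 in line 700 and 1 in line 889. In BME Mki67 was at -0.87, Ccnb1 at -0.81, Bub1 at -0.47 and Pcna at -0.23. By pair, the BME median was -0.99 in line 700 and -0.03 in line 889, where 4 of the 10 genes were higher with dox.

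At an unadjusted p under 0.05 on plastic there were 1 gene of the core cascade (Map2k1), 2 other negative regulators (Dusp2 and Dusp8), 1 other output gene (Egr1), 3 immediate early genes (Egr1, Zfp36 and Fos) and 4 proliferation genes (Cdk1, Aurka, Ccnb1 and Mcm2), where 8.29% of all genes tested had one. In BME these counts were 1 (Gab1), 2 (Dusp10 and Lrig1), 1 (Plaur), 0 and 1 (Mki67), beside 4.09% of all genes tested. Fos, Aurka and Mcm2 are named because of these values.

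For the difference between environments, 0 core cascade and 0 proliferation genes had an unadjusted p under 0.05 by limma, beside 2.53% of all genes tested. There were 2 other negative regulators (Errfi1 at 1.42 and Dusp8 at -1.19), 1 other output gene (Egr1 at 2.93) and 3 immediate early genes (Egr1, Fos at 2.14 and Zfp36 at 1.88) under it. All these values include the BME control libraries of line 682. Mean pair changes on plastic and in BME were 0.85 and -0.24 for Errfi1 and -0.67 and 0.11 for Dusp8. They were 1.85 and -0.021 for Egr1, 1.75 and 0.15 for Fos, and 1.83 and 0.41 for Zfp36. Among the 2 highest differences of each list, Dusp2 (1.60), Epha4 (1.58), Sos2 (0.80) and Sos1 (0.51) were also positive. Among the 2 lowest, Dusp14 (-1.08), Ccnd1 (-1.08), Plk1 (-0.74), Cdk1 (-0.60), Hras (-0.55), Fosl1 (-0.43), Btg2 (-0.15) and Ptpn11 (-0.13) were negative. The sign of Fosl1 did not hold within lines, where its mean pair change was 1.06 on plastic and 0.63 in BME. Junb (0.17), the second lowest immediate early gene, and Pcna (0.14) and Mcm2 (0.06), the highest proliferation genes, were near 0.

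**Figure D5:**
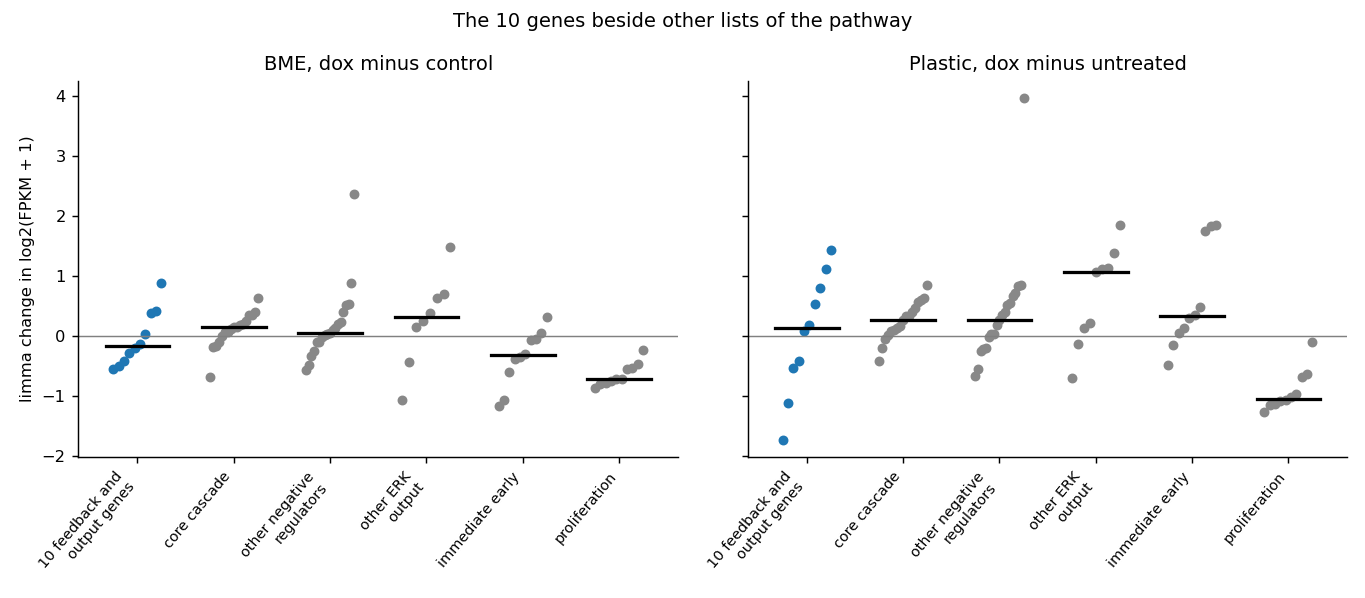
Fitted dox change in log2(FPKM + 1) of each tested gene (points) by list, in BME (left) and on plastic (right), with black bars for medians. On plastic the 10 feedback and output genes spread from -1.73 to 1.44 around a median of 0.13, the other ERK output genes have a median of 1.06 (0.23 to 0.70 within single pairs), and the fitted changes of all 10 proliferation genes lie below 0.

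Likeness to Dusp6 and Etv5 was measured as the root mean square distance of log2(FPKM + 1), centred on each table's mean, over the 12 libraries, among 11976 other genes. The genes nearest to Dusp6 were Eda2r (0.21), Schip1 (0.22) and Tmem43 (0.23), beside a median distance of 0.60. Of the other 9 genes, Spry2 was nearest to Dusp6 at 0.36 (rank 224). The genes nearest to Etv5 were Celsr2 (0.19), Per3 (0.19) and Il4i1 (0.20), beside a median of 0.50, and Etv4 was its nearest relative among the 10 at 0.31 (rank 211). These distances share the depth and composition of the same libraries and are a description only.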

How the data were processed

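RNA-Seq of 12 libraries was used, 6 per environment. Per the study's methods and the submitters' processing notes, kallisto and DESeq2 were the authors' tools, and mm9 (the same build as NCBIM37) is named; versions are not given in the sources used here. The authors deposited FPKM values in 1 table per environment, each scaled on its own 6 libraries. The deposited comparison tables hold the authors' mean normalized signal, log2 fold change, its error, a test score and p-values, and were not used.

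The 10 genes and all other gene lists were chosen with earlier results of these data known. Groups came from the labels. limma 3.58.1 in R 4.3.3 (lmFit and a trended eBayes, two-sided) was fitted to log2(FPKM + 1) of all genes averaging 0.5 FPKM or more, after tests on simulated data, with Benjamini-Hochberg adjustment over all genes tested. Calls required an adjusted p under 0.05 and a log2 change beyond 1 in either direction. No block was used, as the study states none. Same-line pairs were described without a test, and Smad4 by exact permutation (scipy 1.17.1). Whether libraries of a line deviate together was checked by correlating deviations from group means, which gave 0.61 and 0.66 in BME and 0.46, 0.61 and 0.25 on plastic, so line numbers pair the libraries. The fit without a block treats libraries as independent, so its p-values do not take this pairing into account. Both libraries of line 682 lie in the BME control group, and each other line enters the dox and the untreated group.

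The FPKM tables hold no counts. Low values came out as whole reads within 0.05 for 83.1% (BME) and 84.4% (plastic), so depths are approximate and no count test was run. The rule for named genes was all 10 genes and, per other list and comparison, each called gene and otherwise the 2 highest and 2 lowest changes; 1 gene that this rule selects is not reported here. Alternatives covered the pseudocount (0.1), the filter (none, or a mean of at least 2), scaling, the line as a block, the mock library, lines 700 and 889 only, and each library left out.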

Additional observations from a re-analysis of the deposited data

Results flagged for a closer look

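Among the 10 genes, 1 had a control library in BME that stood apart from the other control libraries of its group of 4. Dusp5 was 30.2 FPKM in untreated line 700, while the other 3 control libraries had 8.41 to 10.9 FPKM, so that the gap to the nearest was 0.885 of the whole range, above Dixon's critical value for groups of 4. The dox library of the same line was also the higher of the 2 dox libraries, at 38.6 FPKM. Chance gives such a gap in about 1 of 20 groups of independent samples, and 10 genes were examined. That rate is only a guide here, since 2 of the 4 control libraries are of line 682.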

How the results depend on the processing

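The number of the 10 genes called stayed at 0 in all 3 comparisons under every alternative run. Of 460 refitted changes, 72 equalled the reported value at the digits compared (mostly through a filter or block that leaves it as it is) and 20 repeated another setting. Of the other 368, 349 kept their direction and 19 reversed. No change was called, and the lowest adjusted p (limma) was 0.379 in BME, 0.113 on plastic and 0.857 for the difference between environments. With the line as a replicate block, 2 of the genes in BME (7.41% of all genes tested), 5 on plastic (13.5%) and 3 for the difference between environments (5.42%) had an unadjusted p under 0.05 (0, 4 and 0 without it, Dusp5 being the gene gained on plastic), Etv4 reversed to 0.28 in BME and to -0.11 for the difference, and 0 genes of the whole table were called in BME (3 without it) and 7 on plastic (4 without it). It changed no call of the 10 genes. Over the whole table, BME also gave 1 called gene with a pseudocount of 0.1, 0 with a mean FPKM of at least 2, 0 without the mock library and 0 with it counted as dox. Plastic gave 10 with a pseudocount of 0.1 and 0 with no filter, and the difference between environments gave 5 with no filter. Leaving out 1 library at a time gave 0 to 37 in BME and 0 to 55 on plastic, the highest in each without dox line 700, and 0 to 1 of the 10 genes at an unadjusted p under 0.05 in BME (1.92% to 7.73% of all genes tested) and for the difference (1.58% to 3.87%), and 3 to 6 on plastic (4.14% to 10.4%). Spred1 on plastic was no longer under 0.05 in 5 of these 6 fits or with upper-quartile scaling. Smad4 on plastic then ranged from 2.99 to 3.98, and was called without dox line 700 (adjusted p = 0.0267 by limma).

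Handling of the mock library turned Etv4 in BME to 0.079 when it was left out and to 0.35 when it counted as dox, and Etv5 to 0.18 when it counted as dox. With lines 700 and 889 only, Etv5 turned to -0.028 for the difference, and 1 of the 10 genes (Spry1, at -1.30) had an unadjusted p under 0.05, beside 3.38% of all genes tested. Leaving out 1 library at a time, these changes crossed 0: in BME, Spry4 (-0.078 to 0.92), Spred1 (-0.030 to 0.087) and Etv4 (-0.36 to 0.079); on plastic, Etv4 (-0.021 to 0.52) and Etv5 (-0.034 to 0.22); for the difference, Dusp5 (-0.20 to 1.27), Dusp6 (-0.80 to 0.10) and Spry2 (-0.56 to 0.045). The cause was not tested. Scaling by median of ratios or upper quartile reversed none of the 10 genes. The few libraries limit all comparisons. Depth limits Spry4 most, except in dox lines 700 and 889 on plastic, where Etv5 had fewer reads.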
